A study of Mus musculus with 75 samples.

Results

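Medulloblastoma allografts were compared 24 h after 1 dose of 40 mpk (mg per kg) of MK4101, an inhibitor of Smoothened, the signal transducer of the hedgehog pathway, and 24 h after vehicle. The comparison held 4 arrays of treated and 5 arrays of vehicle tumors, 9 of the 75 arrays of the series, and all were chosen by their labelled schedule, dose and time. Every tumor compared was a medulloblastoma of Ptch1+/- mice grown in a nude CD1 host that received a single dose (labelled QD) of drug or vehicle. Nude mice lack a thymus, so mature T cells are scarce, while macrophages and other innate cells remain. The series as a whole followed 40 or 80 mpk and vehicle over 1 to 36 h, and used 1 array of biotin-labelled cRNA per sample. The labels used here give neither the vehicle's makeup, nor the animals' age, nor whether replicates are different animals.

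In the hedgehog pathway, the receptor Ptch1 restrains Smoothened until a ligand binds it. Free Smoothened lets the Gli transcription factors turn on targets such as Gli1 and Ptch1 itself. Granule neuron progenitors of the cerebellum divide in response to Sonic hedgehog, and medulloblastomas of Ptch1+/- mice arise from these cells. Sterols also bind Smoothened, which ties cholesterol metabolism to the pathway.

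Values are scaled intensities, with a mean of 1 over all arrays together and array medians from 0.109 to 0.131, and differences are log2 of treated over vehicle. All 75 arrays were fitted together in limma and p-values were adjusted over 21552 genes, with 0.05 as the threshold. At 24 h after 40 mpk, 3128 genes were higher (14.5% of those tested) and 2600 lower (12.1%), and the median over all genes was -0.01. Counts of list members at 24 h are to be read beside these shares. After a further quantile normalization the split was 2394 higher and 3584 lower, so 40.0% in place of 54.6% of the called genes were higher. Of the 5728 called genes, 4268 had treated and vehicle arrays that did not overlap, and 747 differed at least 2-fold. Overlap was counted only among called genes, so its share over all genes is not given and it is no separate support for the calls. Treated replicates 1, 2 and 3 and vehicle replicate 5 were rich in skeletal muscle transcripts, as were 21 of all 75 arrays, counting those with a mean log2 level of 20 muscle genes above 0. With that mean as a covariate 2655 genes were higher (12.3%) and 2412 lower (11.2%), of which 2541 and 2265 were the same genes. Without the 21 arrays, which leaves 1 treated array at 24 h, 742 were higher (3.44%) and 961 lower (4.46%). Every call at 24 h without the muscle-rich arrays thus assumes that this lone array varies like the arrays of the other groups. In these bulk samples, fewer cells of a type and less RNA per cell cannot be told apart. The tumor identity genes Atoh1 and Barhl1, transcription factors of the granule neuron lineage, were bright on all 9 arrays.

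Hedgehog targets were lower 24 h after 40 mpk, with some members higher. Of the 16 targets measured, 9 fell and 2 rose, with a median of -0.46 over the list. Gli1, the most direct readout of the pathway, stood at 2.298, 2.61, 2.32, 2.02 and 2.29 in vehicle replicates 1 to 5 and at 1.31, 1.105, 1.27 and 0.501 in treated replicates 1 to 4. All treated arrays lay below all vehicle arrays, and treated replicate 4, the 1 treated array low in muscle transcripts, was the lowest. The difference was -1.23 ± 0.21 (SE, adjusted p = 3.1e-06), a 2.35-fold fall, and it was -2.20 without the muscle-rich arrays, where replicate 4 alone stands for the treated tumors. Gli1 had an SD of 0.652 (log2, n = 4) among treated and 0.132 (n = 5) among vehicle arrays.

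Ptch1, both the receptor and a target, read 19.1, 19.4, 20.2, 17.9 and 20.3 in vehicle and 12.9, 11.4, 13.5 and 9.03 in treated arrays. The groups did not overlap, and treated replicate 4 was again the lowest. Ptch1 differed by -0.74 ± 0.11 (adjusted p = 2.4e-07), a 1.67-fold fall. The tumors came from Ptch1+/- mice, and the probe set does not tell which allele is read.

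Hhip, a decoy receptor for the ligands, was at 0.122, 0.153, 0.287, 0.167 and 0.199 in vehicle and 0.0947, 0.08702, 0.0687 and 0.0728 in treated tumors, a difference of -1.15 ± 0.24 (adjusted p = 0.0001, and 0.0746 without the muscle-rich arrays). These were dim signals, and adding 0.1 before the logarithm shrank the difference to -0.64. Foxm1, a transcription factor of mitotic genes, differed by -1.20 ± 0.15 (adjusted p = 3.5e-09), and the stem cell surface protein Prom1 by -1.03 ± 0.19 (adjusted p = 1.7e-05). The kinase Cdk6 differed by -0.69 ± 0.14 (adjusted p = 8.8e-05). The co-receptor Boc (-0.60, adjusted p = 0.00145) and the factor Gli2 (-0.53, adjusted p = 0.00868) also fell, and Gli2 was no longer called without treated replicate 4 (-0.37, adjusted p = 0.0942).

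The D cyclins, which drive entry into the cell cycle, moved in opposite directions. Ccnd1 read 17.2, 17.3, 17.8, 17.1 and 17.5 in vehicle and 14.4, 14.2, 14.5 and 10.3 in treated arrays, a difference of -0.39 ± 0.12 (adjusted p = 0.00771). Treated replicate 4 lay far below the other treated arrays, and without it the difference was -0.27 (adjusted p = 0.0883). Ccnd2 read 16.02, 14.1, 13.4, 15.5 and 13.8 in vehicle and 24.6, 22.6, 24.7 and 26.1 in treated arrays, so that every treated tumor was higher, by 0.75 ± 0.11 (adjusted p = 3.1e-07). Mycn, the Myc family member of this lineage, was also higher (0.40 ± 0.10, adjusted p = 0.00109). Bcl2 (-0.24), Foxf1 (-0.22), Sfrp1 (0.20), Igf2 (0.20) and Nkx2-2 (-0.11) did not pass the threshold.

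**Figure D1:**
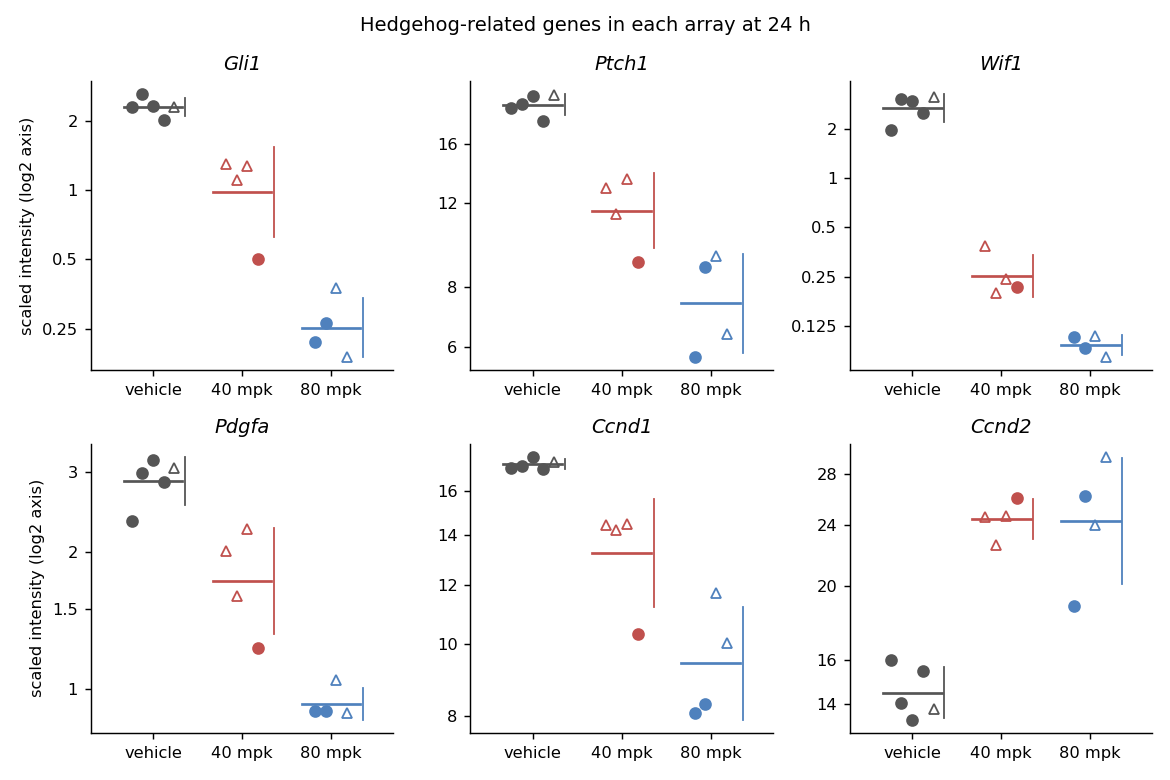
Scaled intensity on a log2 axis for 6 genes in each array at 24 h after vehicle, 40 mpk or 80 mpk, with horizontal bars at the geometric mean and vertical bars of 1 SD of log2 values. Open triangles are arrays with a muscle list mean above 0, and the lowest 40 mpk value of Gli1, 0.501, is a filled circle.

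Most of the pathway's own machinery did not pass the test. Of 19 components measured, 4 rose and 1 fell, against 14.5% higher and 12.1% lower among all genes. The list median was 0.07, so the list as a whole was not set apart from all genes. Disp2, a homolog of the protein that releases ligands, differed by 0.80 ± 0.13 (adjusted p = 1.3e-06), and the kinase Stk36 by 0.80 ± 0.15 (adjusted p = 1.8e-05). Disp1, which releases the ligands, differed by 0.36 ± 0.09 (adjusted p = 0.00095), and lost its call after quantile normalization (0.18, adjusted p = 0.1135). Ift88, a transport protein of the cilium, rose by 0.20 (adjusted p = 0.034), and leaving out treated replicate 2 or 4 (adjusted p = 0.0967 and 0.147) or any of vehicle replicates 3 to 5 ended the call (adjusted p of 0.0705, 0.0521 and 0.0518). Spop, an adaptor for the breakdown of Gli proteins, differed by -0.33 ± 0.08 (adjusted p = 0.00236). Smo, which encodes the drug's target, differed by -0.14 ± 0.12 (adjusted p = 0.44), and the Gli inhibitor Sufu by 0.26 ± 0.13 (adjusted p = 0.131).

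The next question was whether the response at 24 h had moved from that at 12 h. Against the vehicle of the same hour, Gli1 differed by 0.17 at 1 h (4 against 5 arrays), -3.22 at 6 h (5 against 5) and -3.57 at 12 h (3 against 4). It then differed by -1.23 at 24 h and 0.38 at 36 h (3 against 3). The effect at 24 h minus that at 12 h was 2.34 ± 0.31 (adjusted p = 2e-06), so Gli1 was nearer to vehicle at 24 h, and the value was 1.57 without the muscle-rich arrays. Over all genes the effect moved up from 12 to 24 h for 340 (1.58%) and down for 546 (2.53%). The first count ran from 84 without vehicle replicate 3 at 12 h to 808 without treated replicate 4 at 24 h, and the second was lowest, 278, without the former array.

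Ptch1 moved the same way, by 0.66 ± 0.17 (adjusted p = 0.0126), but the call was lost with the mean of its probe sets (0.24, adjusted p = 0.398) and without the muscle-rich arrays (0.36, adjusted p = 0.843). With the replicate number as a block its adjusted p was 0.0536. Pdgfa, a growth factor, moved by 1.13 ± 0.19 (adjusted p = 8.6e-05), and Gdf10, a TGF-beta family ligand, by 1.84 ± 0.43 (adjusted p = 0.005675). Both lost the call without the muscle-rich arrays, at 0.69 and 0.77. Wif1 did not pass this test (-0.60 ± 0.33, adjusted p = 0.32), and its difference from vehicle was -2.81 at 12 h and -3.41 at 24 h. Foxm1 moved down, by -1.16 ± 0.23 (adjusted p = 0.00069). In all, 3 of the 16 hedgehog targets moved up, 1 moved down and 12 did not pass, so most were not called for a move. With some single arrays left out, such as treated replicate 4 at 24 h, 2 moved down.

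**Figure D2:**
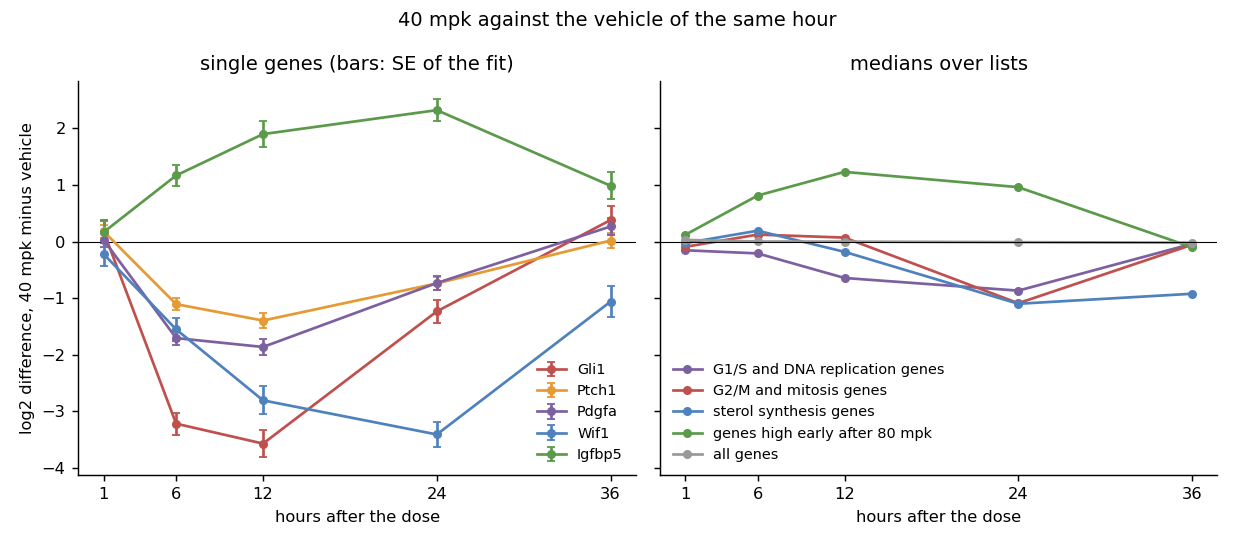
Log2 difference of 40 mpk from the vehicle of the same hour against hours after the dose, for 5 genes with the SE of the fit (left) and as medians over 4 lists and all genes (right). Gli1 lies at -3.57 at 12 h and -1.23 at 24 h, while the G2/M median goes from 0.07 to -1.09.

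A set of genes that had been low in the first hours after 80 mpk, chosen earlier from this series by those hours, was still low at 24 h after 40 mpk. Of its 15 members, 12 fell and none rose, with a median of -1.20, and 1 rose without vehicle replicate 1. From 12 to 24 h, 4 of the 15 moved up and 11 did not pass, against 1.58% of all genes moved up. Only 2 moved up without 40 mpk replicate 3 at 12 h or treated replicate 1 at 24 h. Wif1, a secreted inhibitor of Wnt ligands, was at 1.95, 3.06, 2.96, 2.49 and 3.11 in vehicle and 0.385, 0.1996, 0.243 and 0.216 in treated tumors. The gap between the groups exceeded the spread within either, and the difference of -3.41 ± 0.22 (adjusted p = 2.6e-18) was a 10.6-fold fall. Hk2, a hexokinase, differed by -1.34 ± 0.11 (adjusted p = 9.3e-15), the transcription factor Bcl11b by -1.73 ± 0.14, and the endothelial factor Sox18 by -1.20 ± 0.12. Dcpp1 and Dcpp2, neighbouring members of a secreted protein family whose probes may not tell them apart, differed by -2.62 ± 0.25 and -2.53 ± 0.27. Pdgfa differed by -0.73 ± 0.13 (adjusted p = 7.3e-06), and Gdf10 did not pass (-0.67 ± 0.28, adjusted p = 0.0725).

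The matching set of early high genes was still high, with 13 of 14 members risen and a median of 0.96. Igfbp5, which binds insulin-like growth factors, read 7.497, 4.87, 4.81, 5.22 and 5.599 in vehicle and 24.2, 30.4, 28.03 and 28.1 in treated arrays. Every treated array was above every vehicle array, and the difference was 2.32 ± 0.20 (adjusted p = 3.9e-14). Rec8, a cohesin subunit of meiosis, differed by 1.90 ± 0.16 (adjusted p = 2.2e-14), the homeobox factor Barhl1 by 1.04 ± 0.10 and the factor Dmrta1 by 1.48 ± 0.15. At 36 h the medians of the low and high sets were 0.02 and -0.10. Since both sets were chosen within this series with its other results known, their direction is not independent evidence.

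Genes of the cell cycle were lower at nearly every step. Of 29 genes of the G1/S transition and DNA replication, 28 fell and none rose (median -0.87), and of 29 genes of G2/M and mitosis, 27 fell and none rose (median -1.09). All 13 measured genes of homologous recombination and the Fanconi pathway fell (median -0.90). The counts were 28, 27 and 13 with the muscle covariate, and 26, 27 and 12 without the muscle-rich arrays, with 1 treated array left and its spread taken from the other groups.

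Among replication genes, Cdc45, a part of the replicative helicase, read 2.88, 3.24, 2.68, 3.06 and 3.09 in vehicle and 1.71, 1.07, 1.23 and 1.25 in treated arrays, a difference of -1.21 ± 0.13 (adjusted p = 2.9e-11). The groups did not overlap. Rrm1, of the ribonucleotide reductase, differed by -0.92 ± 0.09 (adjusted p = 9.7e-12), and Tyms, which makes thymidylate, by -0.99 ± 0.11. The replication factor Mcm10 differed by -1.16 ± 0.13, which was -0.59 over the mean of its probe sets. Among repair genes, Fancb differed by -1.05 ± 0.11, the helicase Blm by -0.80 ± 0.09, Fancd2 by -1.15 ± 0.13 and Rad51c by -0.86 ± 0.10.

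Among mitotic genes, Cdk1, the kinase that starts mitosis, read 22.01, 21.1, 23.5, 24.8 and 22.3 in vehicle and 13.1, 9.96, 9.21 and 11.1 in treated arrays. The lowest vehicle array was above the highest treated array, and Cdk1 differed by -1.08 ± 0.10 (adjusted p = 1.6e-12). The checkpoint kinase Bub1 differed by -1.40 ± 0.11 (adjusted p = 5.1e-15), Dlgap5, a spindle protein, by -1.28 ± 0.13, and the mitotic kinase Aurka by -1.14 ± 0.12. At 12 h the median of the mitotic genes was 0.07, while that of the replication genes was -0.64. From 12 to 24 h, 26 of the 29 mitotic genes and 0 of the 29 replication genes moved down past the threshold, against 2.53% of all genes, and 1 replication gene did without treated replicate 1 at 24 h or vehicle replicate 2 at 12 h. Cdk1 moved by -0.99 ± 0.16 (adjusted p = 2.3e-05), Bub1 by -1.23 ± 0.17 and Plk1, a mitotic kinase, by -1.39 ± 0.19. At 36 h the medians of the replication and the mitotic list were -0.04 and -0.06.

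The promoters of the 2 lists were then read for the letters of known cell cycle motifs, and 4 are shown because mitotic genes (26 of 29) but no replication gene passed for the move from 12 to 24 h. The motifs searched, on both strands, were TTTGGCGC, TTTCCCGC, TTTCGCGC and TTTGCCGC, forms of the site read by E2F factors, and TTTGAA and TTCGAA, the cell cycle homology region (CHR) read by the DREAM complex. By their letters an E2F match and a CHR match cannot overlap, so the 0 overlaps in the 32851 windows are no finding. The windows run from 250 bases before to 50 bases after the RefSeq start (GRCm38.p6), and capitals mark only the motif searched for that gene's own list. For each list they are the 2 genes with a match and the smallest adjusted p. Mcm3 (chr1:20820263-20820562, minus strand, -1.002 ± 0.12 at 24 h) is a subunit of the replicative helicase, and Uhrf1 (chr17:56304063-56304362, plus strand, -0.91 ± 0.11) maintains DNA methylation. Bub1 lies at chr2:127831810-127832109 and Cdk1 at chr10:69352863-69353162, both on the minus strand.
Mcm3: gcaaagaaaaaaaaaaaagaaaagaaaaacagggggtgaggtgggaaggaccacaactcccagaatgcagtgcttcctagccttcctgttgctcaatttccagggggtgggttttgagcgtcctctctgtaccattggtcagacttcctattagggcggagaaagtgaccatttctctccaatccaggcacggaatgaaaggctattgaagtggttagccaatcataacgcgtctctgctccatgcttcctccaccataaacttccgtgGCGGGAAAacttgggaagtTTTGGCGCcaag
Uhrf1: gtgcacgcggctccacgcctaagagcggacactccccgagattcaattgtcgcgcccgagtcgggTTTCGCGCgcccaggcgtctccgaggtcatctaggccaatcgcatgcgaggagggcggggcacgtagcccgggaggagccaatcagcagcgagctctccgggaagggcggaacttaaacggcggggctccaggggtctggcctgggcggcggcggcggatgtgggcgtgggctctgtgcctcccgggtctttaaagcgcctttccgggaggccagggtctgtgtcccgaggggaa
Bub1: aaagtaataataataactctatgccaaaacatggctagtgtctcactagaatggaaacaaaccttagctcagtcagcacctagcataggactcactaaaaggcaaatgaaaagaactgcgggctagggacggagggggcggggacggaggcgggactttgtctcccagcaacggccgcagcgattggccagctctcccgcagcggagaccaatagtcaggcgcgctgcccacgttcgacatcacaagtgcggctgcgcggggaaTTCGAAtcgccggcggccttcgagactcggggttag
Cdk1: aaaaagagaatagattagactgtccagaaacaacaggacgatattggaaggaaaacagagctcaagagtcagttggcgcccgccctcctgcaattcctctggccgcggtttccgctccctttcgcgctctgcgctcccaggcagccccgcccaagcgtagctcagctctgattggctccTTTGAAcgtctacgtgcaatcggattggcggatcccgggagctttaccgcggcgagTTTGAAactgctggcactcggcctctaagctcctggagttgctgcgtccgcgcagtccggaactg
The E2F letters were in 11 of 24 promoters of replication genes (45.8%), in 1 of 22 of mitotic genes, which was Cdk1, where they are left in lower case, and in 704 of 27025 genes (2.61%). The CHR letters were in 17 of 22 mitotic promoters (77.3%), in 5 of 24 replication promoters (20.8%) and in 5854 of all genes (21.7%). A match is a description of these letters and not a site shown to be bound. The Gli site GACCACCCA was in the window of 0 of 9 hedgehog targets and of 78 genes in all (0.289%).

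**Figure D3:**
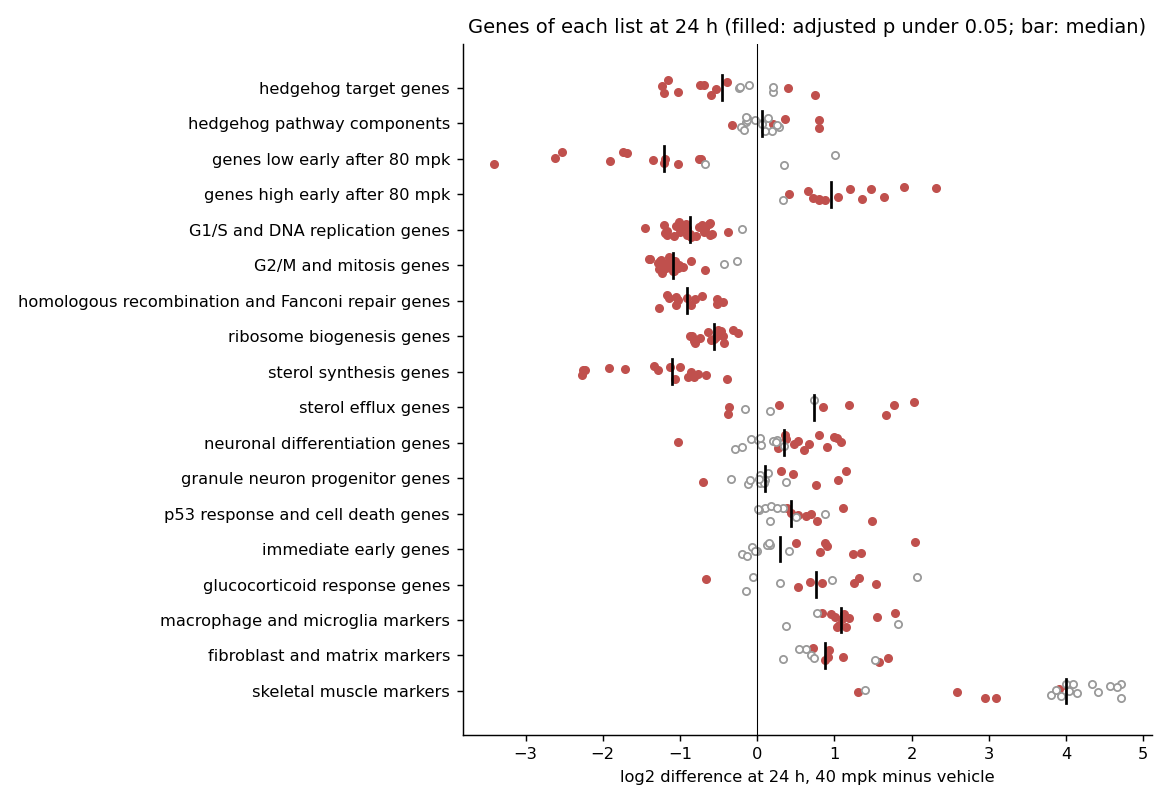
Log2 difference at 24 h (40 mpk minus vehicle) of each measured gene of 18 lists, with filled points for an adjusted p under 0.05 and a black bar at the median. The G1/S and G2/M lists lie to the left of 0, with medians of -0.87 and -1.09, and the muscle list spreads to the right.

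Of 7 genes for inhibitors of cyclin-dependent kinases, 0 rose and 2 fell, with Cdkn2d at -0.77 ± 0.10 (adjusted p = 2.8e-09) and Cdkn2c at -0.51 ± 0.13 (adjusted p = 0.00137). Cdkn1a (0.11 ± 0.24, adjusted p = 0.805) and Cdkn1b (0.03 ± 0.09, adjusted p = 0.881) did not pass, and the sign of either changed when 1 treated array was left out (-0.07 for Cdkn1a without replicate 2, -0.05 for Cdkn1b without replicate 4). Of 8 D cyclins, their kinases and pocket proteins, 2 rose and 3 fell. The pocket protein Rbl1 differed by -0.80 ± 0.09 (adjusted p = 5.3e-11) and its relative Rbl2 by 0.32 ± 0.08 (adjusted p = 0.00274).

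Cholesterol synthesis was lower in every gene measured. All 16 measured genes of sterol synthesis and its regulators fell, with a median of -1.10. Cyp51, which demethylates lanosterol, read 3.600, 3.81, 4.15, 4.07 and 4.34 in vehicle and 1.08, 0.874, 1.01 and 1.28 in treated arrays. The groups did not overlap, and the difference of -1.92 ± 0.13 (adjusted p = 5.9e-17) was a 3.79-fold fall. The synthesis enzymes Msmo1 (-2.23 ± 0.16), Idi1 (-2.25 ± 0.16) and Fdps (-2.26 ± 0.23) had larger differences, and Srebf2, the transcription factor that drives the pathway, differed by -1.29 ± 0.10 (adjusted p = 2.1e-15). At 12 h the median of the list was -0.18 and at 36 h it was -0.92. From 12 to 24 h, 14 of the 16 genes moved down, Msmo1 by -1.53 ± 0.24 (adjusted p = 1.7e-05) and Cyp51 by -1.26 ± 0.20 (adjusted p = 2.7e-05). Without the muscle-rich arrays, 12 of the 16 were still lower at 24 h, and 2 passed for the move from 12 h. The sterol element TCACCCCAC was in the window of 1 of 12 promoters of the list, that of Hmgcs1, the first committed enzyme of the pathway, and of 166 genes in all (0.614%).

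A list of 11 genes, named sterol efflux genes in the plot of lists, held 7 of sterol efflux, uptake control and their nuclear receptors, and 4 of fatty acid synthesis. Of the 11, 6 rose and 2 fell, with a median of 0.74, and 1 rose and 1 fell without the muscle-rich arrays. Abca1, which pumps cholesterol out of cells, read 3.41, 2.79, 2.65, 2.55 and 3.12 in vehicle and 10.7, 15.1, 13.1 and 9.18 in treated arrays, and every treated array was higher. It differed by 2.03 ± 0.33 (adjusted p = 1.8e-06, and 0.067 without the muscle-rich arrays). Mylip, which marks the LDL receptor for breakdown, differed by 1.77 ± 0.25 (adjusted p = 8.5e-08) and the transporter Abcg1 by 1.67 ± 0.27 (adjusted p = 2.1e-06). The members that fell serve fatty acid synthesis, namely the desaturase Scd2 (-0.37 ± 0.08, adjusted p = 0.00042) and the regulator Srebf1 (-0.38 ± 0.11, adjusted p = 0.00874, and 0.0791 without treated replicate 4, at -0.28). Without that array 1 of the 11 fell. Macrophage markers, 11 of 14, were higher in the same arrays, and their part in the efflux genes was not tested.

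Ribosome biogenesis was lower in all 17 genes measured (median -0.57), with 17 called with the muscle covariate and 12 without the muscle-rich arrays. Nop56, of the particles that modify ribosomal RNA, differed by -0.85 ± 0.08 (adjusted p = 1.9e-12), the nucleolar protein Nolc1 by -0.87 ± 0.09 and Bop1, a processing factor, by -0.60 ± 0.07. With the mean of all their probe sets Nop56 differed by -0.52 and Bop1 by -0.22.

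Many neuronal genes were higher. Of 23 genes of neuronal differentiation, 12 rose and 1 fell (median 0.35), and 10 rose without the muscle-rich arrays. Stmn2, a growth cone protein, read 10.9, 8.39, 9.300, 10.7 and 9.49 in vehicle and 18.8, 18.1, 16.9 and 24.6 in treated arrays, and differed by 0.997 ± 0.11 (adjusted p = 3.7e-11) with no overlap. Neurod2, a transcription factor of young neurons, differed by 0.90 ± 0.14 (adjusted p = 5.4e-07), the adhesion molecule Cntn2 by 1.08 ± 0.17 and the migration protein Dcx by 1.03 ± 0.18. The gene that fell was Nrcam, an adhesion molecule (-1.03 ± 0.24, adjusted p = 0.00061), and 2 fell without treated replicate 2. At 12 h the median of the list was 0.39, and 0 of the 23 genes passed for the move from 12 to 24 h.

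Lineage genes of granule neuron progenitors moved both ways. Of 16 measured, 5 rose and 1 fell, with a median of 0.10. Atoh1, the factor that defines the progenitors, read 21.6, 19.9, 23.4, 21.6 and 22.5 in vehicle and 21.5, 19.98, 21.9 and 26.3 in treated arrays. The groups overlapped, and Atoh1 did not pass (0.04 ± 0.12, adjusted p = 0.8705, and -0.04 without treated replicate 4). Nhlh1, a factor of newly formed neurons, differed by 0.77 ± 0.10 (adjusted p = 1.2e-08) and Meis1 by 0.46 ± 0.08 (adjusted p = 1.6e-05). Meis2 rose by 1.15 ± 0.32 (adjusted p = 0.00493), but its value without the muscle-rich arrays was -0.30. Pax6, a factor of the same lineage, passed narrowly (-0.71 ± 0.27, adjusted p = 0.0402) and lost its call without any one of treated replicate 2 or 3 or vehicle replicates 2 to 5 (adjusted p from 0.0521 to 0.175).

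Genes tied to p53 and cell death were higher in 8 of 17 and lower in 0, with a median of 0.44. Trp53inp1, a stress-induced autophagy and death protein, read 2.76, 2.81, 3.24, 2.98 and 2.597 in vehicle and 7.29, 7.601, 8.31 and 9.28 in treated arrays, and differed by 1.49 ± 0.12 (adjusted p = 1.9e-15). The groups were far apart. Sesn1, a stress-responsive regulator of growth, differed by 0.70 ± 0.09, and the BH3-only death proteins Bmf and Bbc3 by 1.11 ± 0.15 and 0.63 ± 0.09. Cdkn1a, a classical p53 target in the same list, did not pass, as given above. Without the muscle-rich arrays 3 of the 17 were called.

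**Figure D4:**
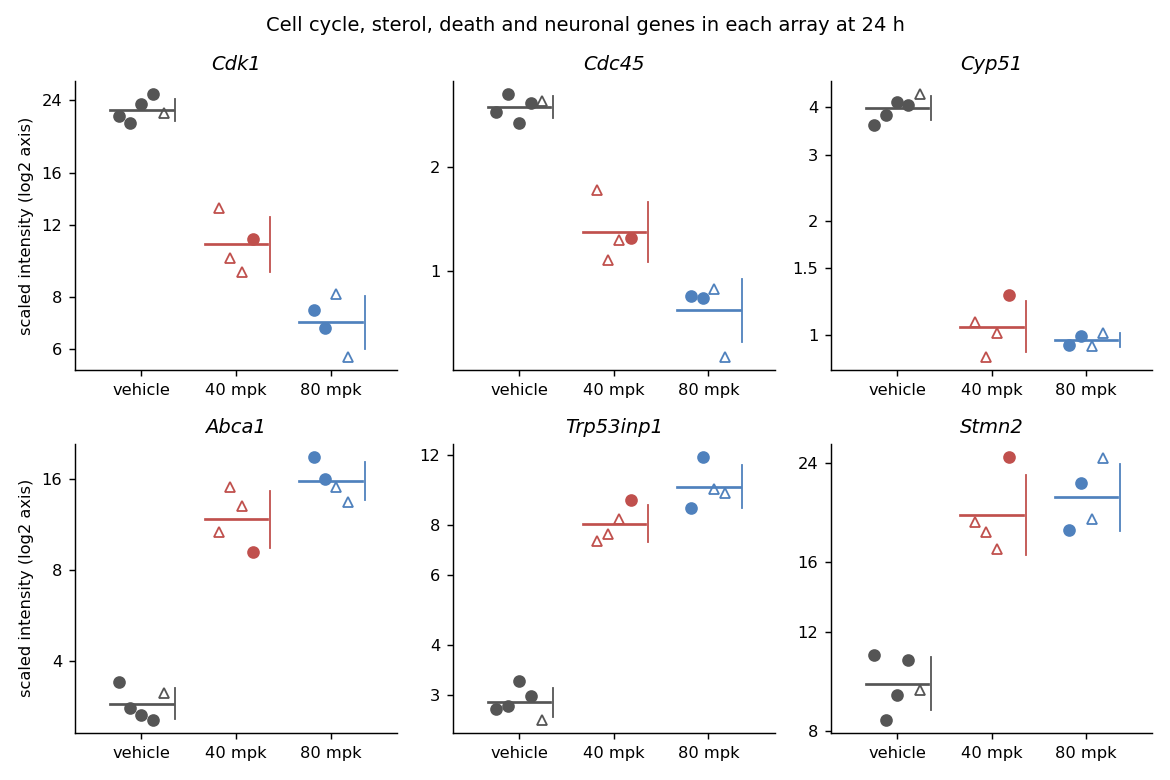
Scaled intensity on a log2 axis for 6 genes of the cell cycle, sterol, death and neuronal lists in each array at 24 h, with the geometric mean and 1 SD of log2 values, and open triangles for arrays with a muscle list mean above 0. In each of the 6 genes no 40 mpk array overlaps the vehicle arrays.

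Immediate early genes, which respond within minutes to growth factors or stress, were higher in 7 of 16 and lower in 0 (median 0.29). This rested on treated replicate 2, without which 1 of 16 rose and 1 fell, and on vehicle replicates 4 and 5, without either of which 4 rose. Fos read 3.34, 2.21, 1.41, 1.17 and 1.27 in vehicle and 7.504, 16.7, 3.89 and 5.29 in treated arrays, and replicate 2 was the highest of them. It differed by 2.04 ± 0.43 (adjusted p = 0.00017), and from 12 to 24 h by 2.88 ± 0.65 (adjusted p = 0.00439). Atf3, a stress factor, differed by 1.24 ± 0.34 (adjusted p = 0.00337), and by 0.86 (adjusted p = 0.0671) without replicate 2. Fosb differed by 0.87 ± 0.24 (adjusted p = 0.0047), and by 0.25 (adjusted p = 0.333) without replicate 2. With the muscle covariate 4 of the 16 were called, and 0 without the muscle-rich arrays.

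Of 12 genes of the glucocorticoid response, 6 rose and 1 fell (median 0.77), with 5 and 1 under the muscle covariate and 1 and 1 without the muscle-rich arrays. The member with the smallest adjusted p was the one that fell, Fkbp5, a chaperone partner of the receptor (-0.67 ± 0.08, adjusted p = 5.7e-10). The kinase Sgk1 differed by 1.54 ± 0.31 (adjusted p = 0.00011), the factor Klf9 by 0.84 ± 0.17 (adjusted p = 0.00011) and the metallothionein Mt1 by 1.32 ± 0.28 (adjusted p = 0.00014). Of 14 clock genes 3 rose (1 without treated replicate 2 or with the muscle covariate) and 3 fell, and 0 rose and 1 fell without the muscle-rich arrays, with Hlf at -0.75 ± 0.13, Arntl at 0.60 ± 0.12 and Cry1 at -0.56 ± 0.12, the 3 with the smallest adjusted p. Of 15 hypoxia and glycolysis genes 0 rose (2 without treated replicate 4, 1 without vehicle replicate 3) and 3 fell, Hk2 as above, the glycolytic enzyme Eno1 at -0.26 ± 0.07 (adjusted p = 0.00417) and Ldha, of lactate production, at -0.18 ± 0.06 (adjusted p = 0.0357). The call of Ldha was lost without any one of treated replicates 2 and 4 and vehicle replicates 2 to 5 (adjusted p from 0.0519 to 0.149). Of 14 interferon response genes, 0 passed in either direction.

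The 12 largest rises among genes without overlap began with Scara5, a ferritin receptor of stromal cells, at 3.02 ± 0.69 (adjusted p = 0.00054), and Pdk4, which spares glucose in muscle and other tissues, at 3.01 ± 0.82. The heart and slow muscle light chain Myl2 (2.50 ± 0.58), Aldh1a1, which makes retinoic acid (2.44 ± 0.62), the matrix protein Ogn (2.41 ± 0.68) and the muscle fatty acid carrier Fabp3 (2.42 ± 0.57) followed. Next were Retnla of alternatively activated macrophages (2.39 ± 0.67), the plasma protein Clec3b (2.35 ± 0.64), Igfbp5, and Angptl4, an inhibitor of lipoprotein lipase (2.21 ± 0.32). Clec7a, a fungal receptor of macrophages (2.18 ± 0.43), and Ear2, a ribonuclease of eosinophils (2.16 ± 0.59), completed the 12. Without treated replicate 3 Myl2 differed by 1.49 (adjusted p = 0.0397).

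Angptl4 read 0.597, 0.517, 0.491, 0.706 and 0.559 in vehicle and 2.82, 2.27, 2.304 and 3.27 in treated arrays. It was high also in treated replicate 4, which is low in muscle transcripts, and with the muscle covariate it differed by 2.32 ± 0.33 (adjusted p = 1.3e-07). Of these 12 genes, Pdk4 went from 3.01 to 1.36 and Fabp3 from 2.42 to 1.248 with the covariate, while Igfbp5 went from 2.32 to 2.21. The largest falls were Wif1, Dcpp1, Dcpp2, Fdps, Idi1, Msmo1 and Cyp51, given above, the neurotrophin receptor Ngfr (-1.76 ± 0.15), Bcl11b, Sqle of sterol synthesis (-1.72 ± 0.19), and Sowaha (-1.69 ± 0.16). A 12th, whose symbol is given to 2 genes in the tables used, is not named.

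Transcripts of muscle, stroma and macrophages varied between the arrays. The mean log2 level of the 20 muscle genes was 3.19, 2.40, 3.89 and -3.10 in treated replicates 1 to 4, and -3.22, -3.14, -3.08, -1.84 and 0.62 in vehicle replicates 1 to 5. The groups overlapped, through treated replicate 4 and vehicle replicate 5. Of the 20 genes 6 rose and 0 fell (median 4.01), and between 1 and 20 rose when any 1 array was left out, with 20 without treated replicate 4. Ckm, the muscle creatine kinase (4.15 ± 1.91, adjusted p = 0.104), and Acta1, skeletal actin (4.56 ± 2.45, adjusted p = 0.1765), did not pass, and both passed without that array (5.96 and 6.94). Myh7, a slow myosin, rose by 1.30 ± 0.27 (adjusted p = 0.00013), and by 0.70 without treated replicate 3. Of 6 muscle precursor markers 2 rose, the filament protein Des (2.07 ± 0.78) and the factor Myf6 (1.53 ± 0.42), and 1 fell, the factor Myod1 (-0.74 ± 0.15, adjusted p = 0.00011). The call of Des was lost without any one of treated replicates 1 to 3 and vehicle replicates 1 to 4 (adjusted p from 0.0688 to 0.202).

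Macrophage and microglia markers were higher in 11 of 14, with a median of 1.08. Their mean log2 level was 2.16, 2.50, 2.22 and 1.76 in treated and 1.68, 0.95, 0.83, 1.00 and 0.72 in vehicle arrays. All treated arrays lay above all vehicle arrays, and treated replicate 4 by little over vehicle replicate 1. Trem2, a receptor of lipid-laden macrophages, read 0.309, 0.278, 0.361, 0.273 and 0.2105 in vehicle and 0.912, 0.9101, 1.14 and 0.939 in treated arrays, and differed by 1.78 ± 0.29 (adjusted p = 2e-06). The fractalkine receptor Cx3cr1 differed by 1.19 ± 0.21 (adjusted p = 9.5e-06), the lysosomal protein Cd68 by 1.55 ± 0.34 and the growth factor receptor Csf1r by 1.13 ± 0.25. The count was 11 with the muscle covariate, 6 with muscle and fibroblast covariates and 1 without the muscle-rich arrays.

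Fibroblast and matrix markers had mean log2 levels of 2.93, 3.39, 3.12 and 1.72 in treated and 2.68, 1.80, 1.51, 1.63 and 1.61 in vehicle arrays, so that the groups overlapped. Of 13 measured 7 rose and 0 fell (median 0.88), with 2 to 11 when 1 array was left out, 3 with the muscle covariate and 0 without the muscle-rich arrays. Fibronectin, Fn1, differed by 0.88 ± 0.20 (adjusted p = 0.00065) and the growth factor receptor Pdgfra by 1.58 ± 0.42 (adjusted p = 0.00276). Of 12 endothelial markers 2 rose, near the 14.5% of all genes that were higher. These were the receptor Tek (1.499 ± 0.36) and the tight junction protein Cldn5 (1.52 ± 0.39), and 6 of the 12 rose without treated replicate 4.

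Of the other cell types, 0 of 9 neutrophil, 0 of 9 adipocyte (1 without treated replicate 2), 0 of 8 keratinocyte and 0 of 3 erythroid markers passed. Over all genes 14.5% were higher and 12.1% lower, so the small counts that follow are near the shares of all genes. Of 10 lymphocyte and natural killer markers 2 rose, Cd4 (0.91, adjusted p = 0.0268) and Ncr1 (0.78, adjusted p = 0.0494). Cd4 lost its call without any of treated replicates 1 to 3 or vehicle replicate 3, and Ncr1 without any array but treated replicate 4 and vehicle replicate 1 (adjusted p from 0.0624 to 0.11 and from 0.0656 to 0.31). Of 8 astrocyte markers Aqp4, a water channel found in muscle too, rose (2.07 ± 0.57) and Slc1a3 fell (-0.33 ± 0.12). Aqp4 was at 1.51 (adjusted p = 0.0648) without treated replicate 3, and Slc1a3 lost its call when treated replicate 2 or 3, or vehicle replicate 2, 3 or 5, was left out (adjusted p from 0.0613 to 0.177). S100b passed without treated replicate 1 (-0.39, adjusted p = 0.0214) or vehicle replicate 3 (-0.33, adjusted p = 0.0492). Of 7 oligodendrocyte markers Mbp rose (0.72 ± 0.09, adjusted p = 1.7e-09) and Olig1 fell (-1.10 ± 0.19, adjusted p = 8.3e-06), while the others did not pass, and 2 fell without vehicle replicate 1, where Olig2 was at -0.53 (adjusted p = 0.025). The part of host tissue in the rises named above was not tested beyond the covariates and the arrays left out.

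**Figure D5:**
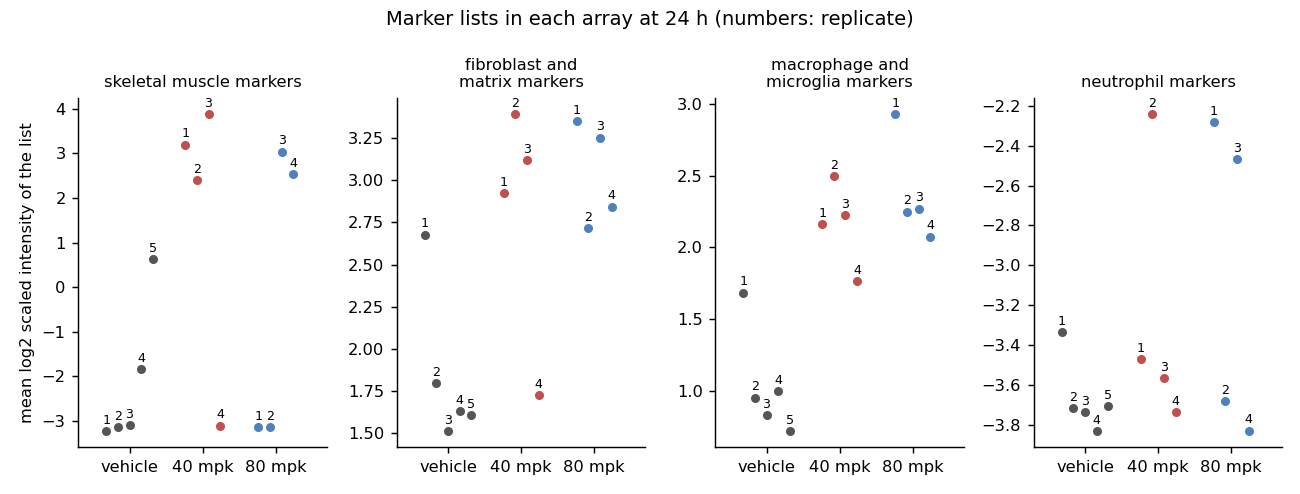
Mean log2 scaled intensity of 4 marker lists in each array at 24 h after vehicle, 40 mpk or 80 mpk, with the replicate number beside each point. Muscle means lie above 0 in 40 mpk replicates 1 to 3, vehicle replicate 5 and 80 mpk replicates 3 and 4, and the macrophage means of all 40 mpk arrays, 1.76 to 2.50, lie above those of vehicle.

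The genes whose effect moved up most from 12 to 24 h included genes of inflammation. The chemokine Cxcl2 moved by 6.67 ± 1.69 (adjusted p = 0.0127), the receptor-like Ccrl2 by 4.54 ± 1.05 (adjusted p = 0.00531), the endotoxin receptor Cd14 by 4.49 ± 1.27 and the chemokine Ccl3 by 3.89 ± 1.03. Cxcl2 read 0.0442, 0.0412, 0.0453, 0.0439 and 0.0417 in vehicle and 0.123, 4.82, 0.114 and 0.0684 in treated arrays at 24 h, and treated replicate 2 was far above the rest. Without that array Cxcl2 moved by 5.26 (adjusted p = 0.0654), Cd14 by 3.96 (adjusted p = 0.0862) and Ccl3 by 3.04 (adjusted p = 0.0837). Without vehicle replicate 3 at 12 h they moved by 4.99, 3.19 and 2.66 (adjusted p = 0.093, 0.181 and 0.125). Among those that moved down most were the mitotic genes Knl1 (-1.71 ± 0.43), Ncapg (-1.64 ± 0.34) and Kif14 (-1.48 ± 0.30, and -0.87 with the mean of its probe sets), the nuclear lamin Lmnb1 (-1.54 ± 0.34) and the sterol genes Fdps (-1.86 ± 0.34) and Msmo1.

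The last comparison asked what the higher dose changed at 24 h, with 4 arrays of 80 mpk set against the same 4 arrays of 40 mpk. At 80 mpk 2 genes were higher (0.00928%) and 258 lower (1.2%), and 99 were lower without 40 mpk replicate 1, 137 without 80 mpk replicate 1 and 145 without 80 mpk replicate 4. Gli1 read 0.218, 0.265, 0.374 and 0.189 at 80 mpk, and all these values lay below the lowest 40 mpk array. It differed from 40 mpk by -1.95 ± 0.22 (adjusted p = 2.5e-08), and by -1.06 without the muscle-rich arrays, which leaves 1 array of 40 mpk and 2 of 80 mpk. Ptch1 differed by -0.65 ± 0.12 (adjusted p = 0.00035) and Wif1 by -1.39 ± 0.23 (adjusted p = 0.00011). In all, 6 of 16 hedgehog targets were lower at 80 mpk, with 3 without 40 mpk replicate 1 and 2 without 80 mpk replicate 1.

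Replication and mitosis were lower too. Of the replication genes 19 of 29 were lower at 80 mpk (median -0.55) and of the mitotic genes 16 of 29 (median -0.51). Cdc45 read 0.843, 0.833, 0.883 and 0.562 at 80 mpk, all below the 40 mpk arrays, and differed by -0.75 ± 0.13 (adjusted p = 0.00032). Ung, a DNA repair glycosylase, differed by -1.07 ± 0.16 (adjusted p = 1.3e-05) and Dscc1, of a clamp loader, by -1.10 ± 0.17 (adjusted p = 3.5e-05). The mitotic count was 3 without 40 mpk replicate 1, 9 without replicate 2, 4 without 80 mpk replicate 1, and 6 without 80 mpk replicate 2 or 4. Of the 16 sterol synthesis genes 0 passed, with a median of -0.01, and Cyp51 read 0.938, 0.993, 0.937 and 1.01 (-0.12 ± 0.14, adjusted p = 0.971). The higher genes were Itih2 (0.69 ± 0.19) and Cldn8 (0.40 ± 0.11), both dim, and each lost its call without 80 mpk replicate 1 or 40 mpk replicate 1 or 3, at 0.28 and 0.24 without the first. Muscle transcripts also differed between the doses. Of the 20 muscle genes 1 was lower and 0 higher at 80 mpk (median -1.79), and 0 were lower without 40 mpk replicate 3. The muscle light chain genes Myl2 and Myl3 were lower too. Both lost the call without that array, at -1.28 (adjusted p = 0.604) and -0.67 (adjusted p = 0.533). Fitted on these 8 arrays alone, 0 genes passed in either direction, and 1280 had an unadjusted p under 0.05, against 1607 in the fit on all arrays.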

How the data were processed

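Total RNA of 75 allograft samples was hybridised to 1 biotin array each. The deposited intensity values, 1 per probe set, were made by the authors with RMA, per the submitters' processing notes. Its settings and the genome build are not given in the sources used here. The values were all above 0, with a mean of 1 over all arrays together, and were treated as linear. Their log2 was taken with no pseudocount, although the plan had assumed log2 values.

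A single gene symbol was given for 30342 of the 43681 probe sets, and the 13339 without one were not used. Symbols were updated through RefSeq by accession (15257), symbol (11330) or synonym (3702), and 53 were kept. The probe set with the highest mean was used per gene, which left 21552 genes, without a filter.

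The 75 arrays were fitted with 19 group means in limma 3.58.1 (R 4.3.3). The residual and prior degrees of freedom were 56 and 3.37, and p-values were adjusted by Benjamini-Hochberg. Tables and figures used Python 3.11.15, numpy 2.4.6, pandas 2.3.3 and matplotlib 3.10.9. The fit was tested on simulated data. Groups came from the labels. The treated and vehicle arrays of the 24 h groups correlated within group at 0.981 to 0.995 and 0.992 to 0.997. Since the labels do not say that arrays are separate animals, p-values measure only the spread between samples, and the number of arrays limits the precision.

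The comparisons, members and gene lists were chosen with earlier results of these data known. Named were all hedgehog targets, up to 6 members of each other list with the smallest adjusted p, the 12 largest rises and falls without overlap, with and without the muscle covariate, and the 8 largest in each direction for the other contrasts, 227 genes in all. To these, 12 list members were added when their lists were described. All 239 went through the alternatives for the comparison at 24 h, save those that the filter on dim genes removed. For the other contrasts only the genes named for them did. These were array weights, a filter on dim genes (12962 left), an added 0.1, the mean of probe sets, muscle and muscle with fibroblast covariates, the compared groups alone, a replicate block, quantile normalization, a trended robust prior, each array left out, and the muscle-rich arrays left out.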

Additional observations from a re-analysis of the deposited data

Results flagged for a closer look

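Single arrays that stood apart from their group were looked for in 239 genes and 478 groups of arrays, by the gap to the nearest array over the range of the group. Chance sets apart about 1 in 20 groups, and 41 were found. Vehicle replicate 1 accounted for 16, at scaled intensities of Apoe (20.8), Brca1 (1.68), C1qc (8.92), Ccl3 (0.259), Cd68 (4.32), Dkc1 (5.63), Dusp1 (1.61), Fap (2.34), Mcm10 (2.203), Meis2 (0.237), Ncr1 (0.115), Pax6 (0.246), Pdgfra (1.31), Pecam1 (0.607), S100a8 (0.241) and Tyrobp (9.44). Vehicle replicate 5 accounted for 7, all muscle genes, namely Casq1 (0.283), Ckm (6.78), Des (0.365), Eno3 (1.82), Mb (0.915), Myf6 (0.0523) and Myh2 (0.1501). The other vehicle arrays had Pax7 (0.0576) and Syt1 (0.569) in replicate 2, Rrs1 (4.997) in replicate 3 and Hcar2 (0.09702) in replicate 4. Treated replicate 2 stood apart for Ccl3 (2.29), Clec7a (4.83), Cxcl2 (4.82), Junb (1.31), Mx1 (0.452) and Pax6 (0.177), and treated replicate 4 for Acta1 (0.0515), Ccnd1 (10.3), Ckm (0.188), Fap (0.828), Fosl2 (0.876) and Tek (0.0615). Treated replicate 1 did for Retnla (14.1) and treated replicate 3 for Trem2 (1.14).

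The 40 mpk effect differed between 12 and 24 h by the test of that difference in 340 genes that moved up and 546 that moved down. Only the genes named for this comparison are listed here. Other named genes passed too, since 3 of the 16 hedgehog targets moved up and only Gli1 and Ptch1 of them are listed. Of the genes listed the move, in log2, was up for Cxcl2 (6.67), Ccrl2 (4.54), Cd14 (4.49), Scara5 (3.98), Ccl3 (3.89), Steap4 (3.79), Hcar2 (3.71), Aldh1a1 (3.40), Fos (2.88), Gli1 (2.34), Mylip (1.88), Gdf10 (1.84), Pdgfa (1.13) and Ptch1 (0.66). It was down for Fdps (-1.86), Knl1 (-1.71), Ncapg (-1.64), Lmnb1 (-1.54), Msmo1 (-1.53), Pif1 (-1.50), Pimreg (-1.48), Kif14 (-1.48), Sqle (-1.45), Idi1 (-1.42), Plk1 (-1.39), Cyp51 (-1.26), Bub1 (-1.23), Aurka (-1.20), Foxm1 (-1.16), Srebf2 (-1.14) and Cdk1 (-0.99). Of these 31 genes, 24 passed whichever 1 of the 16 arrays was left out. The call was lost without any of 14 arrays for Steap4 (adjusted p from 0.053 to 0.184), any of 6 arrays for Aldh1a1 (adjusted p from 0.0621 to 0.0878), any of 6 arrays for Cd14 (adjusted p from 0.0569 to 0.181), any of 6 arrays for Hcar2 (adjusted p from 0.0513 to 0.17), any of 3 arrays for Ccl3 (adjusted p from 0.0552 to 0.125), any of 2 arrays for Cxcl2 (adjusted p from 0.0654 to 0.093) and any of 2 arrays for Scara5 (adjusted p from 0.0625 to 0.0665).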

How the results depend on the processing

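The 77 values that changed sign belonged to 47 genes, 10 of them called, and 1 of the values, Acta1 at -1.15 with the muscle covariate, was itself called. Acta1 and Ckm are members of the list whose mean is the muscle covariate, and Dcn of that behind the fibroblast covariate. Their signs with these covariates are therefore no separate result. Without the muscle-rich arrays the sign turned for Acta1 (-1.37), Alas2 (-0.35), Aldh1l1 (-0.15), Cd3g (-0.045), Cd79b (-0.091), Cdh5 (-0.0030), Cdkn1a (-0.0075), Ckm (-0.33), Cldn8 (0.075), Col1a1 (-0.34), Col1a2 (-0.042), Des (-0.16), Epb42 (-0.13), Fap (-0.53), Fosb (-0.018), Gja1 (-0.058), Hcar2 (-0.12), Igf2 (-0.23), Krt10 (-0.041), Ltf (0.045), Mb (-0.15), Meis2 (-0.30), Mog (0.13), Myf5 (-0.13), Myog (-0.087), Ncr1 (-0.093), Nkg7 (-0.39), Pecam1 (-0.069), S100a8 (-0.21) and S100a9 (-0.17). With muscle and fibroblast covariates the sign turned for Acta1 (-1.03), Alas2 (-0.024), Cd3g (-0.19), Cdkn1a (-0.29), Ckm (-0.38), Cnp (-0.027), Csf3r (-0.076), Dcn (-0.016), Epb42 (-0.027), Gja1 (-0.053), Irf7 (-0.13), Krt15 (-0.059), Mag (-0.0076), Myf5 (-0.024), Myog (-0.12), Nkg7 (-0.11), S100a8 (-0.11) and Smo (0.019). With the muscle covariate the sign turned for Acta1 (-1.15), Ckm (-0.34), Epb42 (-0.019), Igf2 (-0.053), Krt15 (-0.028) and Myog (-0.062). After quantile normalization the sign turned for Cdkn2b (-0.072), Cnp (-0.056) and Krt10 (-0.11). With array weights the sign turned for Cdkn1b (-0.0020), Mag (-0.011) and Mlf1 (0.086). With the mean of probe sets the sign turned for Clock (0.0073), Nkx2-2 (0.058) and Slc1a2 (-0.17). With 1 array left out, values of both signs were found for Atoh1 (-0.042 to 0.091), Cdkn1a (-0.074 to 0.28), Cdkn1b (-0.050 to 0.076), Cnp (-0.030 to 0.14), Epb42 (-0.027 to 0.068), Krt1 (-0.11 to 0.0085), Krt10 (-0.0022 to 0.17), Mag (-0.033 to 0.21), Mlf1 (-0.39 to 0.14), Rsad2 (-0.092 to 0.69) and Slc4a1 (-0.18 to 0.0030). The cause of these changes was not tested. With the mean of a gene's probe sets, the difference shrank by over 1.5 times in 24 of 166 named genes that passed at 24 h, to the values given here for Arntl (0.23), Bop1 (-0.22), Ccne2 (-0.62), Cemip (0.79), Clock (0.0073), Cntn2 (0.58), Dcpp1 (-1.40), Dlgap5 (-0.78), Fosl2 (0.19), Gli2 (-0.31), Kif14 (-0.74), Mcm10 (-0.59), Myh2 (2.11), Myh7 (0.66), Neurod2 (0.58), Nop56 (-0.52), Nrcam (-0.46), Pax6 (-0.37), Pdgfa (-0.46), Pdgfra (0.82), Prom1 (-0.58), Rad51c (-0.45), Sesn1 (0.32) and Zbtb16 (0.33). Of these, Clock, Fosl2 and Pax6 no longer passed.

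The calls at 24 h stayed within 1.5 times except without the muscle-rich arrays, where 742 genes were higher and 961 lower with 1 treated array left. With 1 array left out they ran from 2337 to 3252 higher and from 2171 to 2665 lower. For the move from 12 to 24 h, array weights gave 1290 up and 1198 down, muscle and fibroblast covariates 224 and 278, and leaving out the muscle-rich arrays 6 and 127, while quantile normalization gave 1054 down. With 1 array left out the counts ran from 84 to 808 up and 278 to 683 down. For 80 against 40 mpk the higher genes numbered 58 with array weights, 1 with the mean of probe sets, 6 with muscle and fibroblast covariates, 4 after quantile normalization, 5 without the muscle-rich arrays and 0 in a fit on these groups alone. The lower genes numbered 476 with array weights, 21 without the muscle-rich arrays and 0 in that fit (1280 at an unadjusted p under 0.05). With 1 array left out they ran from 0 to 17 higher and 99 to 317 lower.

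Deviations of same-numbered treated and vehicle arrays correlated at -0.08, -0.01, -0.14 and 0.11. Arrays of different numbers were not compared, so whether the numbers pair the samples was not settled. With the replicate number as a block the calls were 2596 higher and 2266 lower at 24 h, 175 up and 380 down from 12 to 24 h, and 3 higher and 168 lower for 80 against 40 mpk.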
